A study of Mus musculus with 24 samples.

Results

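The 9 genes described here encode enzymes that turn squalene into cholesterol: Sqle, Lss, Cyp51, Tm7sf2, Msmo1, Nsdhl, Hsd17b7, Sc5d and Dhcr7. They were chosen by their place in the pathway, with earlier results of these data known. Ebp and Lbr, which also encode enzymes after squalene, are not among the 9 and are described apart. The 9 were found by identifier among the 53677 gene identifiers of the count table. All 9 passed the filter on low counts that left 14533 genes to test. RNA had been sequenced from the livers of 24 mice, 1 library per mouse, of 2 inbred mouse strains. The 129S1/SvImJ mice had been fed chow (n = 5) or a high-fat diet (n = 6), and so had the C57BL/6J mice (chow n = 6, high-fat diet n = 7). The sources used here give no sex, no age, no make-up of either diet and no length of feeding, and no group carries a transgene or a drug per the labels.

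Squalene, a chain of isoprene units made by the mevalonate pathway, is oxidised, folded into the ring system of lanosterol and then trimmed of methyl groups, reduced and desaturated until cholesterol is left. All of these steps take place in the endoplasmic reticulum, and the liver is a main site of the pathway. The genes are known targets of the transcription factor SREBP2, which is held in the endoplasmic reticulum by Scap and Insig proteins when membranes are rich in sterol and is released to the nucleus when they are not. SREBP2 is known to act at promoters together with the factors NF-Y, which binds CCAAT, and Sp1, which binds GC boxes.

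Total gene counts ran from 6707013 to 13124881 per library. The 9 hepatocyte markers listed were all detected, with summed levels between 84000 and 130000 CPM (read counts relative to library size, with sizes scaled by edgeR's TMM) in the 24 libraries. Libraries stood apart in 2 ways that touch the results. The small nuclear RNA Rn7sk ran from 2100 to 7260 CPM, with 129S1/SvImJ chow mice 3 and 4 alone above 5620. A second split, chosen after seeing the data, was set at 2980 CPM and left mice of every group on both sides, and low and high Rn7sk below refer to it. The summed level of the adipocyte transcripts Adipoq, Lep, Plin1 and Retn reached 1 CPM in C57BL/6J high-fat mouse 5 (6.31 CPM) and 129S1/SvImJ chow mouse 1 (1.36 CPM). The whole list of 10 adipocyte markers holds genes that other cells also express. Its sum ran from 3350 CPM in that C57BL/6J mouse, the lowest of the 24, to 6960 CPM. Most of that sum came from Car3 (group means 2850 to 3540 CPM) and Pck1 (1800 to 2970 CPM). A few CPM of adipocyte transcripts would not stand out in it. Reads of both strains were mapped to mm10, which is the C57BL/6J genome, and the effect of that on the strain comparisons was not tested.

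Promoter windows from RefSeq (GRCm38.p6, the same build as mm10), 250 bases before to 50 after each annotated start, were held for 8 of the 9 genes and not for Sqle. The patterns named next were searched on both strands in the 10 windows of these genes and in all 32851 windows. TCACNCCAC, a form of the sterol regulatory element, was in 0 of the 10 windows and in 1.24% of all windows. CCAAT was in a window of each of the 8 genes, for Dhcr7 only in the last of its windows, against 37.4% of all windows. GGGCGG was likewise in a window of each of the 8, against 35.7% of all windows and 59.4% of the windows of tested genes. These shares count windows and not genes, whereas Dhcr7, the gene with several windows, was counted if any of them held a match. TCACCTCA, added after the sequences had been read, was in the windows of Cyp51 and Hsd17b7 and in 1.17% of all windows. A match is a run of letters and not a shown binding site, and the absence of a match says only that the letters are not in the window. The stretches below are the parts of the windows outside annotated exons for the genes whose mRNA fell most (Cyp51, Nsdhl) and least (Sc5d, Hsd17b7) in 129S1/SvImJ among those with such a stretch of at least 100 bases. They are written 5′ to 3′ along the gene, with every match to the CCAAT box, the GC box letters or the TCACCTCA run, on either strand, in capitals. No match overlaps another.
Cyp51, chr5:4104747-4104947, minus strand: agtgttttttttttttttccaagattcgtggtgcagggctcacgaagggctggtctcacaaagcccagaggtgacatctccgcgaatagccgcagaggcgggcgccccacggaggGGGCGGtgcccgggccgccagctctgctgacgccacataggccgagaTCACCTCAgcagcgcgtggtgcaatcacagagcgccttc
Nsdhl, chrX:72918412-72918520, plus strand: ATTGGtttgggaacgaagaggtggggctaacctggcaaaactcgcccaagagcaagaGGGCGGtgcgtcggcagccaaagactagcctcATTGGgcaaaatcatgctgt
Sc5d, chr9:42264301-42264550, minus strand: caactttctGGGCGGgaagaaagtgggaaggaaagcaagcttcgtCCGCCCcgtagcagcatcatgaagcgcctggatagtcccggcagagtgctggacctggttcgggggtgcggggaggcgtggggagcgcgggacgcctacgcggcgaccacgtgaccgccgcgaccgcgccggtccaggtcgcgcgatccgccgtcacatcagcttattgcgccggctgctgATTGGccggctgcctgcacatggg
Hsd17b7, chr1:169969242-169969408, minus strand: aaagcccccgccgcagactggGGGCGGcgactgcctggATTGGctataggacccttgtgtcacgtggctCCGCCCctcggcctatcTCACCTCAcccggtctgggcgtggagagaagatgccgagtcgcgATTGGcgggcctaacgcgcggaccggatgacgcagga

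Cyp51 and Hsd17b7 share the TCACCTCA run, which lies 88 and 117 bases before the start that RefSeq gives, while in 129S1/SvImJ Cyp51 fell 15.2-fold on the high-fat diet and Hsd17b7 2.08-fold. The Nsdhl and Hsd17b7 stretches hold 2 CCAAT matches each and the Sc5d stretch 1, while the CCAAT match of Cyp51 lies 29 bases before its start, downstream of the stretch shown.

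The effect of the high-fat diet was compared with chow within each strain. In 129S1/SvImJ all 9 mRNAs were lower on the high-fat diet and passed the test (edgeR quasi-likelihood, adjusted p under 0.05), against 5.01% of all tested genes that were called lower and 5.41% called higher. In C57BL/6J all 9 also fell, against 7.20% of all genes called lower and 7.66% called higher. The median log2 fold change of the 9 was -2.25 in 129S1/SvImJ and -1.70 in C57BL/6J, where the median of all tested genes was -0.00 and 0.01. The high-fat and chow mice did not overlap for 9 of 9 genes in 129S1/SvImJ and for 6 of 9 in C57BL/6J, where 3.78% and 2.11% of all tested genes were lower without overlap. In whole liver, less RNA per cell and fewer cells of a type cannot be told apart. Of 9 hepatocyte markers 1 fell and 0 rose in 129S1/SvImJ (median 0.03), and 5 fell and 0 rose in C57BL/6J (median -0.43). Of the markers of other cells none fell with diet. In C57BL/6J 3 of 6 tested adipocyte markers and 2 of 8 stellate cell markers rose, and in 129S1/SvImJ 1 of 10 Kupffer cell, 1 of 8 stellate cell and 1 of 6 adipocyte markers did. The part of these markers in the result was not tested. Values follow in the order of the pathway.

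**Figure D1:**
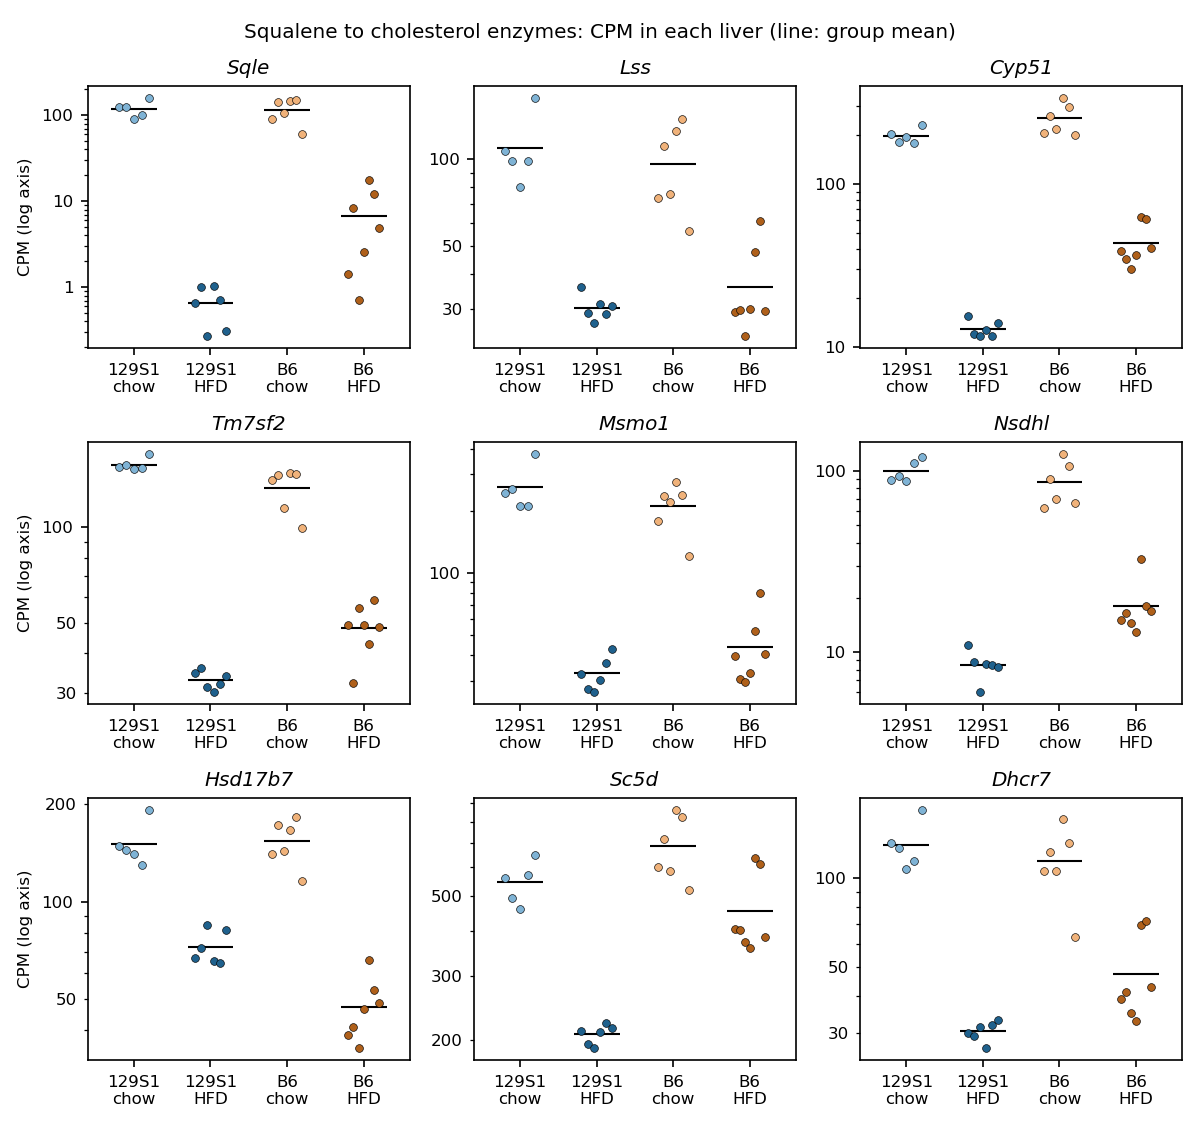
CPM of each of the 9 genes in every liver, on a log axis, with 129S1 for 129S1/SvImJ, B6 for C57BL/6J and HFD for high-fat diet. Points are mice in replicate order and lines are group means. Sqle fell from means of 120 and 116 CPM to 0.663 and 6.79 CPM, and for Sc5d the 2 highest C57BL/6J high-fat mice, at 611 and 634 CPM, lie among the chow mice.

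Sqle encodes squalene epoxidase, which adds oxygen to squalene and is a rate-limiting step of the late pathway (chromosome 15, 59315077 to 59331192, plus strand, mm10). In the 5 chow mice of 129S1/SvImJ it read 126, 123, 89.2, 100 and 159 CPM, and in the 6 high-fat mice between 0.270 and 1.02 CPM with a median of 0.686. These high-fat values rest on 2 to 13 reads per library, so their spread includes counting error. In C57BL/6J it ran from 61.1 to 149 CPM on chow (median 124) and from 0.711 to 17.6 CPM on the high-fat diet (median 4.84). The log2 fold change was -7.40 ± 0.619 (SE) in 129S1/SvImJ (edgeR adjusted p = 1.09e-07) and -4.11 ± 0.427 in C57BL/6J (adjusted p = 3.23e-06). Of the 14533 genes tested, Sqle had the lowest log2 fold change in either strain. By limma on the authors' variance-stabilized values the differences were -5.20 and -3.79.

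Lss encodes lanosterol synthase, which closes the rings (chromosome 10, 76531588 to 76557138, plus strand). It read 107, 98.4, 80.0, 98.8 and 164 CPM in the 129S1/SvImJ chow mice and 26.8 to 35.8 CPM on the high-fat diet (median 30.0), or -1.85 ± 0.247 on the log2 scale (edgeR adjusted p = 4.42e-05). The C57BL/6J mice ran from 56.4 to 138 CPM on chow (median 93.1) and from 24.2 to 60.8 CPM on the high-fat diet (median 29.9). The C57BL/6J groups overlapped because high-fat mouse 6, at 60.8 CPM, stood above chow mouse 6, at 56.4 CPM. It changed there by -1.43 ± 0.224 on the log2 scale (adjusted p = 0.000207). Lss shares 381 exon bases with the antisense gene 4930483K19Rik, which had a mean of 2.71 counts.

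Cyp51, the cytochrome P450 that removes the 14-methyl group of lanosterol (chromosome 5, 4081145 to 4104746, minus strand), read 202, 181, 195, 178 and 229 CPM in the 129S1/SvImJ chow mice. On the high-fat diet it lay between 11.7 and 15.5 CPM (median 12.4), with no overlap. On the log2 scale the change was -3.93 ± 0.186 (edgeR adjusted p = 9.83e-13). In C57BL/6J the range was 200 to 338 CPM on chow (median 241) and 30.2 to 63.1 CPM on the high-fat diet (median 38.7), again apart, with a log2 fold change of -2.54 ± 0.157 (adjusted p = 3.28e-10). Cyp51 shares 166 exon bases with Akap9 on the other strand, and no source used here says how strand was treated in counting. Akap9 had a mean of 1777 counts, against 90 to 187 counts of Cyp51 in the 129S1/SvImJ high-fat libraries, and its log2 fold changes with diet were 0.08 and -0.06 (edgeR adjusted p = 0.54 and 0.605).

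Tm7sf2, a reductase of the double bond that the removal leaves (chromosome 19, 6062821 to 6068373, minus strand), was the steadiest of the 9 among the chow mice of 129S1/SvImJ. They read 155, 157, 152, 153 and 170 CPM, and the high-fat mice 30.2 to 35.9 CPM (median 33.0). This was a log2 change of -2.25 ± 0.115, with the smallest p of the 9 in this strain (edgeR adjusted p = 7.79e-13). C57BL/6J mice ran from 99.3 to 148 CPM on chow (median 144) and from 32.2 to 59.0 CPM on the high-fat diet (median 49.2), with no overlap. Its log2 fold change was -1.47 ± 0.103 (adjusted p = 4.84e-10). Tm7sf2 shares 532 exon bases on the same strand with Vps51, which had a mean of 16.8 counts.

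Msmo1, Nsdhl and Hsd17b7 encode the oxidase, dehydrogenase and ketoreductase that together remove the methyl groups next to the sterol's hydroxyl group. Msmo1 (chromosome 8, 64718139 to 64733792, minus strand) read 245, 254, 210, 210 and 377 CPM in the 129S1/SvImJ chow mice and 26.4 to 42.5 CPM on the high-fat diet (median 31.2). Its log2 fold change was -3.00 ± 0.251 (edgeR adjusted p = 8.74e-08). In C57BL/6J it ran from 120 to 274 CPM on chow (median 228) and from 29.6 to 79.8 CPM on the high-fat diet (median 39.7), with a log2 fold change of -2.28 ± 0.225 (adjusted p = 9.92e-07). Neither strain's groups overlapped.

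Nsdhl, on chromosome X (72918557 to 72958514, plus strand), had the lowest log2 fold change of these partners in 129S1/SvImJ, and the difference from the other 2 was not tested. The chow mice read 88.9, 93.3, 87.8, 110 and 119 CPM and the high-fat mice 6.02 to 10.9 CPM (median 8.55), or -3.54 ± 0.226 on the log2 scale (edgeR adjusted p = 6.53e-10). Among C57BL/6J mice the range was 62.0 to 124 CPM on chow (median 80.2) and 12.9 to 32.5 CPM on the high-fat diet (median 16.5). The groups did not overlap in either strain, and the log2 fold change in C57BL/6J was -2.26 ± 0.194 (adjusted p = 8.12e-08).

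Hsd17b7 (chromosome 1, 169949535 to 169969241, minus strand) had the smallest fall of the 9 in 129S1/SvImJ and was the only one with a fold change nearer to 0 there than in C57BL/6J. The 129S1/SvImJ chow mice read 149, 144, 140, 130 and 192 CPM and the high-fat mice 64.6 to 84.7 CPM (median 69.3). In C57BL/6J the range was 116 to 182 CPM on chow (median 154) and 35.2 to 66.0 CPM on the high-fat diet (median 46.5). Chow and high-fat mice were apart in both strains. The log2 fold change was -1.06 ± 0.137 in 129S1/SvImJ (edgeR adjusted p = 1.55e-05) and -1.70 ± 0.128 in C57BL/6J (adjusted p = 4.39e-09).

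Sc5d and Dhcr7 act at the end of the pathway, where Sc5d sets the double bond that makes 7-dehydrocholesterol and Dhcr7 reduces that sterol to cholesterol. Sc5d (chromosome 9, 42251595 to 42264256, minus strand) had the smallest fall of the 9 in C57BL/6J. It read 558, 494, 459, 570 and 646 CPM in the 129S1/SvImJ chow mice and 190 to 223 CPM on the high-fat diet (median 211), or -1.39 ± 0.149 on the log2 scale (edgeR adjusted p = 7.87e-07). In C57BL/6J the chow mice ran from 518 to 862 CPM (median 659) and the high-fat mice from 358 to 634 CPM (median 403), with overlap. The log2 fold change there was -0.60 ± 0.136 (adjusted p = 0.0041).

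Dhcr7 (chromosome 7, 143823145 to 143848410, plus strand) read 131, 126, 107, 114 and 170 CPM in the 129S1/SvImJ chow mice and 26.7 to 33.3 CPM on the high-fat diet (median 30.8). Dhcr7 thus changed by -2.09 ± 0.214 on the log2 scale (edgeR adjusted p = 1.12e-06). In C57BL/6J it ran from 63.2 to 158 CPM on chow (median 114) and from 33.0 to 71.8 CPM on the high-fat diet (median 41.2). High-fat mice 5 and 6, at 69.4 and 71.8 CPM, stood above chow mouse 6, at 63.2 CPM, and the log2 fold change was -1.27 ± 0.192 (adjusted p = 0.000147). All 18 diet calls held in each of 24 fits that left out 1 library. Within the mice of high Rn7sk (above 2980 CPM) alone, Lss missed the threshold in 129S1/SvImJ (log2 fold change -1.51, edgeR adjusted p = 0.0654) and in C57BL/6J (-1.18, 0.05), and in C57BL/6J Sc5d (-0.44, 0.204) and Dhcr7 (-1.08, 0.0565) did too.

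The strains were then compared on each diet, as 129S1/SvImJ minus C57BL/6J. On chow 0 of 9 genes were called by edgeR, against 25.0% of all tested genes in either direction, and 0 were called by DESeq2 or by limma. An unadjusted p under 0.05 was found for 3 of the 9. The share of all tested genes with such a p was not counted and is at least 25.0%. The 3 were Cyp51 (log2 fold change -0.37, 95% interval -0.71 to -0.03), Sc5d (-0.33, -0.63 to -0.02) and Tm7sf2 (0.24, 0.02 to 0.47). Their edgeR adjusted p was 0.106, 0.112 and 0.112. For Tm7sf2 the lowest 129S1/SvImJ mouse, at 152 CPM, stood above the highest C57BL/6J mouse, at 148 CPM, and 7.49% of all tested genes were higher in 129S1/SvImJ without overlap. The other 6 had log2 fold changes between -0.02 (Hsd17b7) and 0.30 (Msmo1). For Sqle the 95% interval ran from -0.77 to 0.86, so differences within that range remain possible. Without C57BL/6J high-fat mouse 2, which enters only through the shared estimate of spread and scaling, Tm7sf2 passed (adjusted p = 0.0497). Cell markers did differ on chow: 10 of 10 Kupffer cell markers were lower in 129S1/SvImJ (median log2 fold change -1.29), with sums of 68.6 to 181 CPM against 212 to 351. Of 8 endothelial cell markers 4 were lower and 2 higher, and of 9 hepatocyte markers 1 was lower and 2 were higher. Lower too were 2 of 8 stellate cell markers, 1 of 6 tested adipocyte markers and 1 of 6 tested cholangiocyte markers.

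On the high-fat diet 7 of 9 differed between the strains. Lower in 129S1/SvImJ were 6 of 9 (19.1% of all genes were called lower), and 1 of 9 was higher (17.9% were called higher). Sqle was 9.46-fold lower (log2 fold change -3.24 ± 0.702, edgeR adjusted p = 0.000979), Cyp51 3.37-fold (-1.75 ± 0.171, 2.28e-08), Sc5d 2.18-fold (-1.13 ± 0.139, 6.17e-07) and Nsdhl 2.11-fold (-1.08 ± 0.215, 0.000406). Cyp51, Sc5d and Nsdhl did not overlap between the strains, while 7.18% of all tested genes were lower in 129S1/SvImJ without overlap. Sqle overlapped, and its difference was -1.34 by limma on the variance-stabilized values (adjusted p = 0.00365). Dhcr7 (-0.64, adjusted p = 0.0143) and Tm7sf2 (-0.54, 0.000251) were also lower, and overlapped. On this diet 7 of 10 Kupffer cell markers were lower in 129S1/SvImJ (median -0.89), with sums of 109 to 245 CPM against 202 to 506, as were 3 of 6 tested adipocyte markers and 3 of 6 tested cholangiocyte markers, the latter with sums of 28.0 to 43.1 CPM against 47.8 to 176. Of 8 endothelial cell markers 4 were lower and 2 higher, of 8 stellate cell markers 2 were lower and 1 higher, and of 9 hepatocyte markers 1 was lower and 3 higher. The part of these markers in the strain differences was not tested.

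Hsd17b7 went the other way on the high-fat diet. Its level was 72.5 ± 8.73 CPM (SD, n = 6) in 129S1/SvImJ, above the 47.0 ± 10.4 CPM (SD, n = 7) of C57BL/6J (log2 difference 0.62 ± 0.128, edgeR adjusted p = 0.00046). Both groups overlapped through C57BL/6J mouse 5, at 66.0 CPM. Lss (-0.23, 95% interval -0.71 to 0.25) and Msmo1 (-0.42, -0.90 to 0.05) were not called. Within the mice of low Rn7sk, 2 high-fat mice in each strain, 4 calls missed the threshold. Sqle (-3.00, edgeR adjusted p = 0.0685) and Nsdhl (-0.98, 0.0931) were near their values in all mice, and Tm7sf2 (-0.29, 0.27) and Dhcr7 (-0.30, 0.292) were closer to 0. Within those of high Rn7sk Dhcr7 (-0.77, 0.0694) was not called.

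The 4 group levels thus had an order that differed by gene. For Sqle, Cyp51, Tm7sf2, Nsdhl, Sc5d and Dhcr7 the 2 chow groups were highest and did not pass the test between them, C57BL/6J on high-fat diet came next and 129S1/SvImJ on high-fat diet was lowest. For Lss and Msmo1 the 2 high-fat groups had the same places but were not called apart. For Hsd17b7 C57BL/6J on high-fat diet was lowest.

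**Figure D2:**
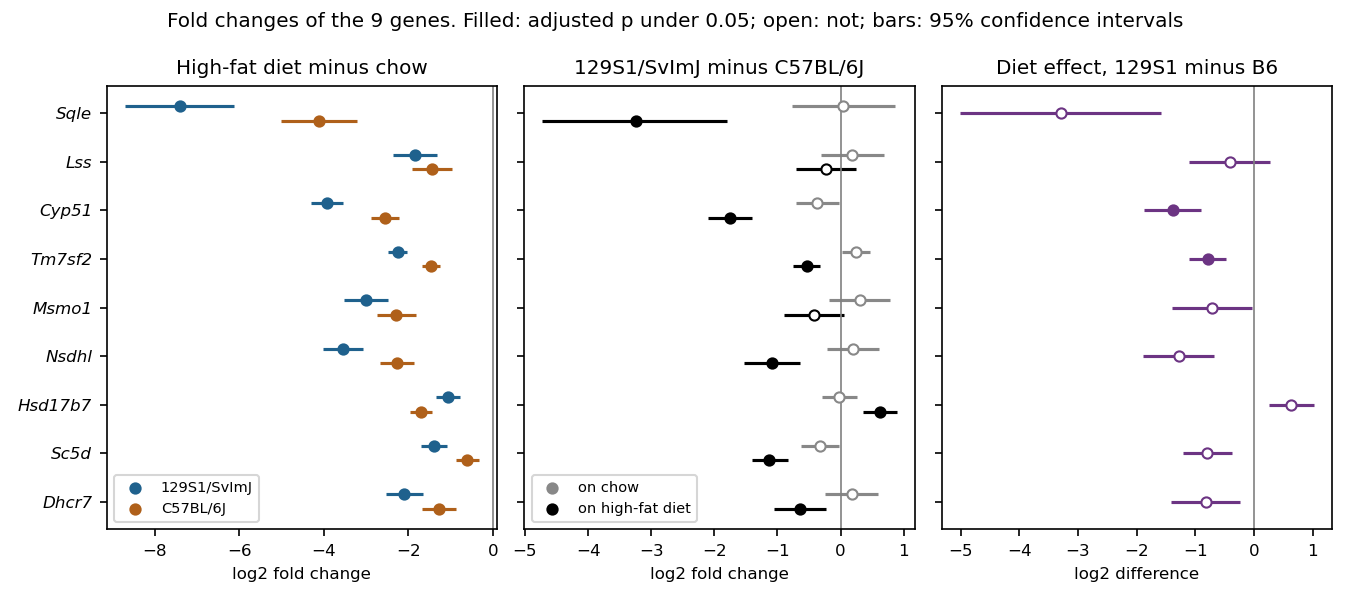
Log2 fold changes of the 9 genes with 95% confidence intervals (edgeR) for diet in each strain, for strain on each diet and for the difference of the diet effects, with filled points where the adjusted p was under 0.05. All diet points lie below 0, the strain points on chow lie between -0.37 and 0.30, and Hsd17b7 alone lies above 0 in the difference of the diet effects (0.64).

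Whether the strains responded differently to the diet was tested directly, by setting the diet effect of 129S1/SvImJ against that of C57BL/6J, as the first minus the second. Called were 2 of 9, both with the larger fall in 129S1/SvImJ, against 0.124% of all genes called in that direction. They were Cyp51, with a difference of -1.38 ± 0.234 in log2 (edgeR adjusted p = 0.0182), and Tm7sf2, with -0.78 ± 0.153 (0.0298). Sqle had the largest difference, -3.29, with a 95% interval from -5.02 to -1.59, and was not called (adjusted p = 0.0773). By limma on the variance-stabilized values it was -1.41 (adjusted p = 0.186), beside -1.14 for Cyp51. Nsdhl (-1.28, adjusted p = 0.056), Sc5d (-0.80, 0.072), Hsd17b7 (0.64, 0.11), Dhcr7 (-0.82, 0.179), Msmo1 (-0.72, 0.318) and Lss (-0.41, 0.616) were not called. Of the 9, 8 had an unadjusted p under 0.05, all but Lss, whose interval ran from -1.10 to 0.28. The share of all tested genes with such a p was not counted.

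These calls were near the threshold. Without the 2 libraries with adipocyte transcripts neither gene was called (Cyp51 -1.27, adjusted p = 0.0509; Tm7sf2 -0.82, 0.0533), nor was either in the smaller sets of low or high Rn7sk. There Cyp51 stood at -1.27 (adjusted p = 0.281) in low and -1.36 (0.446) in high Rn7sk, near its value in all mice, and Tm7sf2 at -0.44 (0.827) and -0.98 (0.23). DESeq2 called 5 lower (Cyp51, Tm7sf2, Sqle, Nsdhl and Sc5d) and 1 higher (Hsd17b7, adjusted p = 0.0484). Over all tested genes DESeq2 called 297 for this difference in either direction, where edgeR called 43. Leaving out 1 library kept Cyp51 in 24 of 24 fits and Tm7sf2 in 18. Tm7sf2 was lost without 129S1/SvImJ chow mouse 1, 2 or 5, 129S1/SvImJ high-fat mouse 4, C57BL/6J chow mouse 3 or C57BL/6J high-fat mouse 1 (adjusted p 0.0512 to 0.0717). Without C57BL/6J high-fat mouse 4, Sqle (0.0423), Nsdhl (0.0299) and Sc5d (0.0385) were called as well, and Nsdhl was also called without C57BL/6J chow mouse 4 (0.0352) or 5 (0.0467).

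In each group some mice were highest or lowest for most of the genes. On chow, 129S1/SvImJ mouse 5 was the highest of its group for 9 of 9 genes and mouse 3 the lowest for 7, and C57BL/6J mouse 6 was the lowest for 8 of 9. On the high-fat diet, C57BL/6J mice 5 and 6 were the highest for 5 and 4 of the genes. Levels were taken as log2 CPM against the chow mean of the same strain and averaged over the 8 genes other than Sqle. On that scale mice 5 and 6 stood at -1.22 and -1.19, and the other 5 mice of that group between -2.00 and -1.75. Mice 5 and 6 share a further number in their identifiers, whose meaning is not given, so they may not be independent. Mouse 7 shares that number too and stood at -1.75. The 6 high-fat mice of 129S1/SvImJ lay closer together, between -2.47 and -2.24, and below every C57BL/6J mouse. None of them was highest for more than 3 genes, and mouse 3 was lowest for 6 genes and highest for Hsd17b7 (84.7 CPM).

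Other RNAs differed in the same mice. C57BL/6J high-fat mouse 5 had the most Adipoq, Lep, Plin1 and Retn RNA (6.31 CPM), the lowest sum of the whole adipocyte list (3350 CPM) and the highest summed stellate cell and cholangiocyte markers of the 24 (1010 and 176 CPM). Mouse 6 had 0.119 CPM of those 4 transcripts, 446 CPM of the stellate cell markers and 56.9 CPM of the cholangiocyte markers, all within the range of the other mice of its group. Among the 129S1/SvImJ chow mice, those with high Rn7sk (3 and 4) had the lowest mean level of the 9 genes (-0.21 and -0.10 in log2 against the group mean). Among the C57BL/6J chow mice, those with high Rn7sk (3, 4 and 6) stood at -0.13, 0.38 and -0.55. Mouse 4 was the highest of that group and mouse 6 the lowest. What part these differences have in the levels was not tested.

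**Figure D3:**
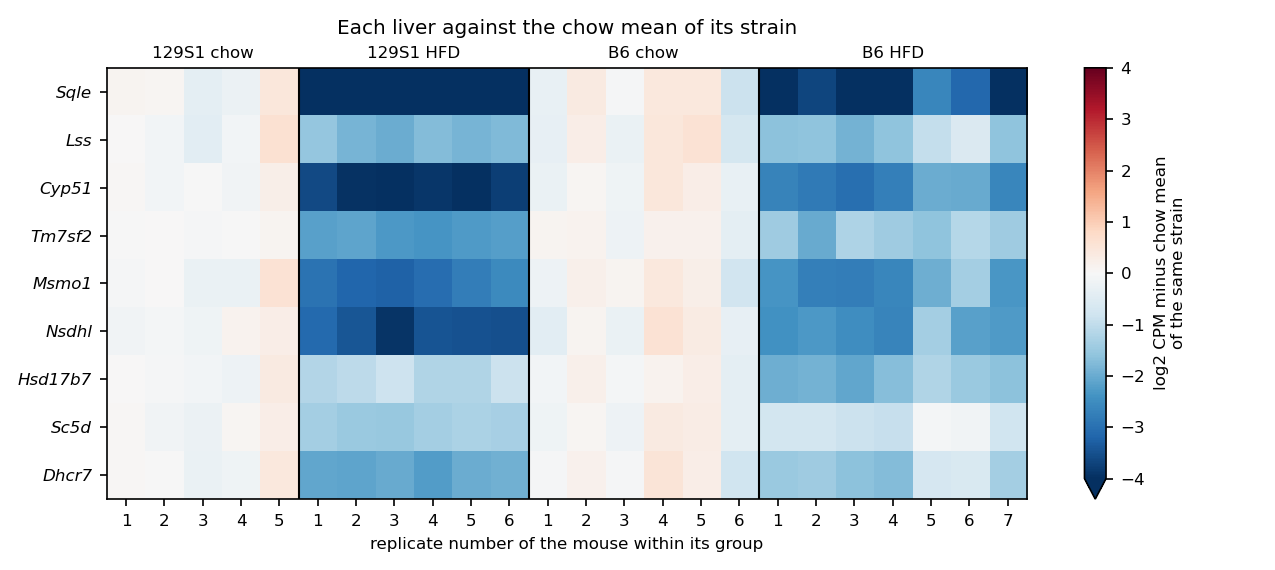
Log2 CPM of each gene in each liver minus the mean of the chow mice of the same strain, with 1 column per mouse and 1 row per gene; the colour scale stops at -4, so Sqle values down to -7.26 share the darkest blue. In C57BL/6J on high-fat diet, columns 5 and 6 are paler than their neighbours for 8 of the 9 genes, and Tm7sf2 is the row where mouse 5 is not.

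Tm7sf2 kept least to this shared pattern. The correlation of each gene's log2 CPM with the mean of the other 8, after subtracting group means, was 0.296 for Tm7sf2 and between 0.711 (Sqle) and 0.931 (Lss, Sc5d) for the others (Pearson r over 24 libraries, a description, since the points share library depth and scaling). In C57BL/6J high-fat mouse 5, which was highest for Sqle, Cyp51, Nsdhl, Hsd17b7 and Sc5d, Tm7sf2 read 42.8 CPM, below the group median of 49.2. The lowest high-fat mouse of that strain for Tm7sf2 was mouse 2 (32.2 CPM), whose Sqle, at 8.23 CPM, was above its group median of 4.84.

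Because the falls were of unequal size, the make-up of the 9 mRNAs changed with diet. Levels were set per kilobase of the longest coding transcript to compare genes, and each gene's share of the summed CPM per kb was taken. On chow the summed level was spread over Msmo1 (21.4% in 129S1/SvImJ and 17.8% in C57BL/6J), Sc5d (19.5% and 24.9%) and Tm7sf2 (18.1% and 15.6%), with smaller shares for the rest. On the high-fat diet Sc5d made up 35.6% in 129S1/SvImJ and 46.2% in C57BL/6J. Tm7sf2 had 18.1% and 16.3%.

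Sqle went from 7.32% to 0.199% of the sum in 129S1/SvImJ and from 7.15% to 1.08% in C57BL/6J, and ranked last of the 9 on the high-fat diet in both. Hsd17b7 went from 5.57% to 12.9% in 129S1/SvImJ, from place 8 to place 4 in the order, and from 5.84% to 5.05% in C57BL/6J. These shares describe group means and carry no test. With the length of all exons joined in place of the longest coding transcript, Sc5d was first in every group, while Msmo1 was in place 3 on 129S1/SvImJ chow instead of first. Cyp51 was then in place 2 on chow in both strains, instead of place 4. Tm7sf2 was in place 4 on 129S1/SvImJ chow and place 5 on C57BL/6J chow, instead of place 3 in both.

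**Figure D4:**
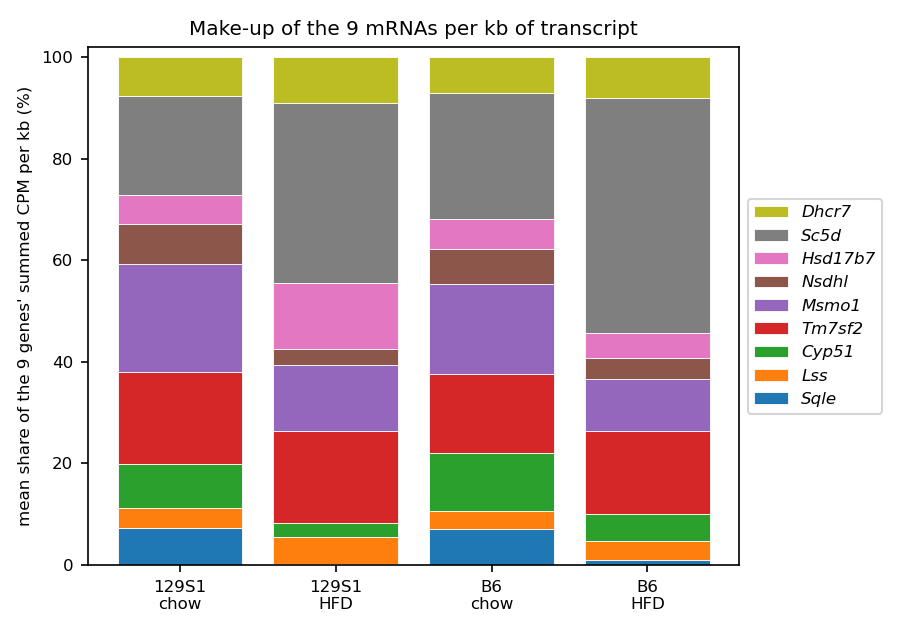
Mean share of each gene in the summed CPM per kb of the 9 genes, in percent, for each group (129S1 is 129S1/SvImJ, B6 is C57BL/6J, HFD is high-fat diet). The Sc5d part grows from 19.5% to 35.6% in 129S1/SvImJ and from 24.9% to 46.2% in C57BL/6J, and the Sqle part is 0.199% and 1.08% on the high-fat diet.

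Further enzymes and the genes that control the pathway were read from lists chosen with earlier results of these data known. Of 2 other enzymes after squalene, 2 fell in both strains, with log2 fold changes nearer to 0 than that of any of the 9 in the same strain, a difference that was not tested. The sterol isomerase gene Ebp changed by -0.36 and -0.34 in log2 (edgeR adjusted p = 0.00309 and 0.00162), and Lbr, whose protein also reduces the double bond that Tm7sf2 acts on, by -0.79 and -0.50 (7.9e-05 and 0.00221).

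The 9 enzymes before squalene fell in both strains, 9 of 9 each, with median log2 fold changes of -2.43 in 129S1/SvImJ and -1.47 in C57BL/6J. Idi1, the isomerase of the isoprene unit, changed by -4.03 and -3.36 (edgeR adjusted p = 1.2e-11 and 7.13e-11), Mvd, the mevalonate decarboxylase, by -4.70 and -2.18 (1.09e-07 and 7.36e-05) and Mvk, the mevalonate kinase, by -2.00 and -1.44 (1.99e-07 and 1.02e-05). The difference of the diet effects was called for Mvd alone of these 9 (-2.52, adjusted p = 0.0431). Both the 9 early and the 9 late enzymes fell in both strains, and no test of one against the other was made.

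Of 16 tested genes of sterol sensing and uptake, 6 fell and 2 rose in 129S1/SvImJ, and 5 fell and 1 rose in C57BL/6J. Srebf2, which encodes SREBP2, changed by -1.39 and -0.81 in log2 (edgeR adjusted p = 1.03e-07 and 5.99e-05) and Stard4, a sterol carrier, by -1.24 and -0.88 (2e-07 and 1.24e-05). Sqstm1, an autophagy receptor, fell in 129S1/SvImJ (-0.46, 0.000119) and was not called in C57BL/6J (-0.18, 0.0711). The list of sterol export and LXR targets also held enzymes of bile acid synthesis. Of its 12 genes, 4 rose and 1 fell in 129S1/SvImJ, and 4 rose and 3 fell in C57BL/6J. Every gene of this list that fell was an enzyme of bile acid synthesis. Abcg5, one part of the exporter of sterol to bile, rose by 1.40 and 1.33 (2.9e-07 and 1.95e-07), Abcg1 by 0.77 in both strains (0.00133 and 0.000216) and Abca1 by 0.50 and 0.24 (0.000229 and 0.0304).

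Among 9 helpers of the sterol enzymes, such as electron donors, 3 fell and 2 rose in 129S1/SvImJ, and 1 fell and 2 rose in C57BL/6J. Erg28, the homolog of a yeast protein that binds the enzymes of methyl group removal, fell by 1.01 and 0.76 on the log2 scale (edgeR adjusted p = 4.2e-06 and 6.27e-05). Por, which passes electrons to Sqle and Cyp51 proteins, rose in 129S1/SvImJ (1.41, 0.00234), where it read 290 ± 147 CPM (SD, n = 5) on chow against 773 ± 130 CPM (SD, n = 6) on the high-fat diet, and was not called in C57BL/6J (0.67, 0.0785). Pgrmc2, a haem-binding membrane protein, rose in C57BL/6J (0.56, 0.00306) and was not called in 129S1/SvImJ (0.04, 0.908).

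**Figure D5:**
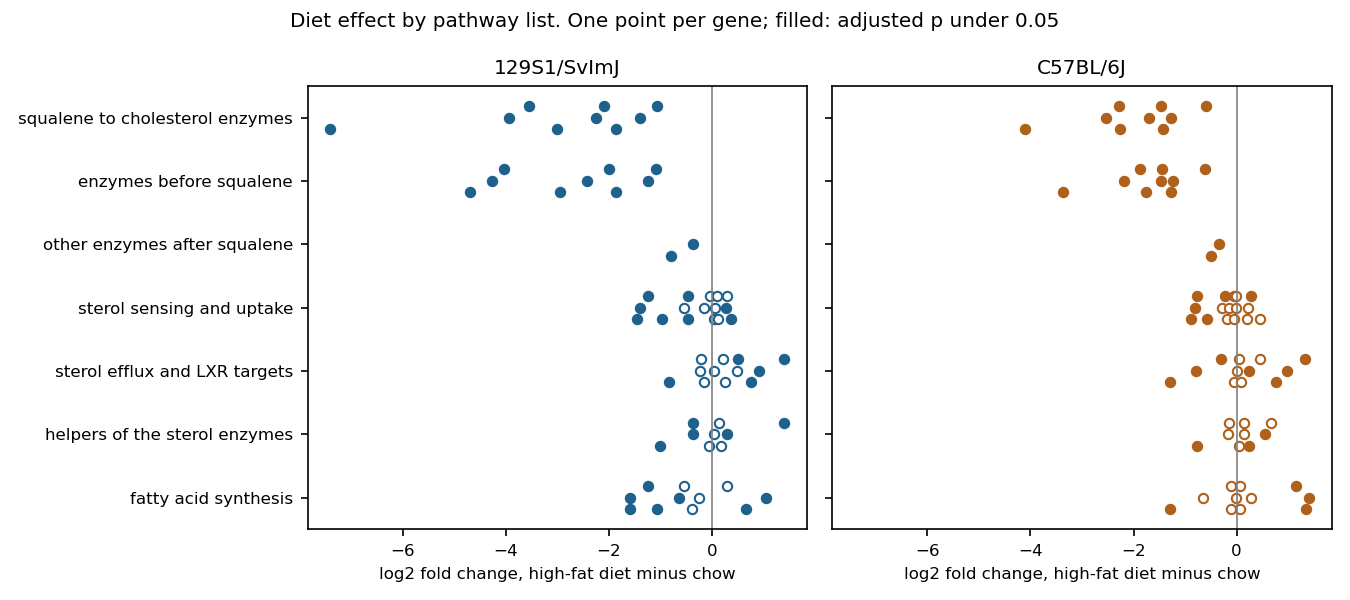
Log2 fold change on high-fat diet against chow of every tested gene of 7 lists, in 129S1/SvImJ and in C57BL/6J, 1 point per gene, filled where the edgeR adjusted p was under 0.05. Both the squalene to cholesterol enzymes and the enzymes before squalene lie wholly below 0, while the other lists lie on both sides of 0 or, for the 2 other enzymes after squalene, between -0.79 and -0.34.

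The genes whose log2 CPM over the 24 libraries was most like the mean standardised level of the 9 were Idi1 (Pearson r = 0.983), Rdh11 (0.980), Aldoc (0.978), Mvd (0.976) and Fdps (0.966). Idi1, Mvd and Fdps are enzymes before squalene, Rdh11 encodes a retinol dehydrogenase and Aldoc an aldolase of glycolysis. After group means were subtracted, r was 0.804, 0.857, 0.683, 0.874 and 0.828 in the same order. Rdh11 changed on the high-fat diet by -2.85 in 129S1/SvImJ (edgeR adjusted p = 7.87e-07) and -1.91 in C57BL/6J (2.44e-05), and Aldoc by -2.54 (9.68e-10) and -1.95 (8.63e-09). These correlations are descriptions over libraries that share depth, scaling and diet groups.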

How the data were processed

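Liver RNA of 24 mice was sequenced after removal of ribosomal RNA with a kit that keeps strand, per the labels' protocols. Per the submitters' processing notes the build was mm10 and the tools were STAR 2.5.4b, Bowtie2 2.2.3, Trimmomatic 0.36 and DESeq2 1.26.0, with no roles stated. No source used here says how strand was treated in counting. The authors deposited raw gene counts, per library and as a matrix (identical for all 24), and variance-stabilized log2 values, used in 1 alternative only.

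Identifiers were matched to GENCODE M21 without version (53582 of 53677, and the 95 unmatched held 0.00747% of counts). In R 4.3.3, edgeR 4.0.16 kept 14533 genes (filterByExpr), scaled libraries by TMM (trimmed mean of M-values) and fitted 1 robust quasi-likelihood model with 4 group means to all libraries. Genes were called at a Benjamini-Hochberg adjusted p under 0.05 over all tested genes. Intervals are 95% intervals from the same fit. Log2 CPM values used a pseudocount of 0.5 CPM. No other annotated transcript matched the 9 genes at 95% identity over 200 bases. The members and the gene lists were chosen with earlier results of these data known, and some genes of the pathway are not reported here. Text genes were the 9 members, up to 3 genes of smallest p in the diet comparisons from each other list, the 5 most correlated genes, and Rn7sk and adipocyte transcripts where libraries stand apart.

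The main model did not pair mice by replicate number, and whether equal numbers mark pairs was not tested. Mouse identifiers hold a further number whose meaning is not given in the labels, so mice may share a litter or cage, and p-values measure the spread between these mice. Every pair of libraries within a group differed beyond counting noise (chi-square of counts divided by its degrees of freedom between 5.3 and 72.4). Alternatives were DESeq2 1.42.0 (size factors and Wald test), limma 3.58.1 on the log2 values, no filter, a replicate block, the 2 groups alone, Rn7sk levels, no libraries with adipocyte transcripts, and leaving out each library. Scripts were tested on simulated data.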

Additional observations from a re-analysis of the deposited data

Results flagged for a closer look

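In the 36 sets of 1 gene in 1 group, 3 held a mouse whose gap to its nearest neighbour, as a share of the group's range, passed Dixon's 95% value, which chance does in about 1 of 20 sets. Tm7sf2 in 129S1/SvImJ chow mouse 5 read 170 CPM (gap share 0.727), and Msmo1 in the same mouse read 377 CPM (gap share 0.734). Nsdhl in C57BL/6J high-fat mouse 5 read 32.5 CPM (gap share 0.738), in the mouse with 6.31 CPM of adipocyte transcripts.

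The diet effect differed between the strains by the test of the difference for Cyp51 (-1.38 in log2, 129S1/SvImJ minus C57BL/6J) and Tm7sf2 (-0.78).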

How the results depend on the processing

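All 9 diet calls in each strain kept their direction under every alternative tried and when each library was left out, and no call of any comparison changed sign. Strain differences on chow, none of them called, changed sign in some alternatives. With Rn7sk split at its widest gap (5620 CPM), Hsd17b7 stood at 0.08 with the level as a factor and at 0.06 within the lower level. With the split at the middle gap (2980 CPM), Sqle stood at -0.15 within the higher level. Signs also changed when single libraries were left out. Over those fits Sqle ran from -0.09 to 0.13, Lss from -0.01 to 0.30 and Hsd17b7 from -0.12 to 0.03. The count called higher on chow was 0 to 1 over those fits. Within low Rn7sk at the middle gap (2980 CPM), a split added after seeing the data, 2 of 9 were called lower in 129S1/SvImJ on high-fat diet. For the difference of the diet effects, 2 were called lower, 5 lower and 1 higher with DESeq2, 0 within low and 0 within high Rn7sk at the middle gap, 0 without libraries with adipocyte transcripts, and 1 to 5 lower when 1 library was left out. A split at the widest Rn7sk gap gave no fit within its high level, which holds 129S1/SvImJ chow mice only.

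With a replicate block, 1 of 9 (Cyp51) was called lower for the difference of the diet effects. Tm7sf2 was no longer called (-0.78, adjusted p = 0.0722), and the block changed no other member's call. Deviations from the group means were correlated between same-numbered mice of different groups. The r ran from -0.220 to 0.314 over 33 pairs, 14 of them over 0.1. These pairs were not set against pairs of unlike numbers, so they do not show whether equal numbers pair the mice.

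Over all genes, the 43 called for that difference became 17 with the block, 297 with DESeq2, 170 with the Rn7sk factor, 196, 1 and 0 within Rn7sk levels (low at the widest gap, low and high at the middle gap), 2 without adipocyte transcripts and 5 to 170 without 1 library. Within low and high Rn7sk at the middle gap, diet gave 305 and 283 calls in 129S1/SvImJ (1514 in all libraries, 937 without chow mouse 1) and 312 and 784 in C57BL/6J (2159). Strain gave 2008 and 1338 on chow (3636), and 1549 within low Rn7sk on high-fat diet (5375). These fits hold fewer mice. Counts of 2 to 13 limit Sqle on the high-fat diet in 129S1/SvImJ.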

Other observations

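Genes of fatty acid synthesis, many of them targets of the related factor SREBP1c, moved in both directions. Of 11 tested, 5 fell and 2 rose in 129S1/SvImJ, and 1 fell and 3 rose in C57BL/6J. Srebf1, which encodes SREBP1, rose by 0.67 and 1.40 in log2 (edgeR adjusted p = 0.0309 and 2.44e-05), and Scd1, a fatty acid desaturase, by 1.05 and 1.35 (0.0169 and 0.0011). Acss2, which makes acetyl-CoA from acetate, changed by -1.59 and -1.29 (0.00168 and 0.00297).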
